A study of Mus musculus with 8 samples.

Results

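The genes described here encode the proteins of the cytosolic ribosome, taken by a rule on their symbols (Rpl or Rps with a number, Rplp0 to Rplp2, Rpsa, and the copies Rpl7l1, Rpl22l1, Rpl36al and Rps27l). The rule found 90 of the 55523 entries of the count table, and numbered pseudogenes with symbols ending in -ps were left out. RNA-seq was run on pituitary cells of Ad4BP-BAC-EGFP mice, sorted for EGFP, in 4 female and 4 male libraries. The transgene, which every library shares, places EGFP under a genomic fragment of the gene for NR5A1 (also called Ad4BP), so that the sort aims at gonadotropes, the pituitary cells that make luteinizing and follicle-stimulating hormone. Labels and methods give no treatment and, for these animals, no age, and they do not say whether animals were pooled or whether each library came from a separate mouse. P-values therefore measure only the spread between these libraries, which may be technical.

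Cytosolic ribosomes consist of a large and a small subunit, in which each protein is normally present at a single copy, except for the acidic stalk proteins Rplp1 and Rplp2, which are bound as dimers to Rplp0 and recruit the elongation factors. The mRNAs of these proteins belong to the class that starts with an oligopyrimidine tract (TOP mRNAs), whose translation is governed together by mTORC1 and the RNA-binding protein LARP1. Transcripts of this family are abundant in most cells, and their genes have left many processed copies in the mouse genome. In secretory cells such as the gonadotrope, ribosomes on the endoplasmic reticulum make the hormone subunits.

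The sequence feature that the family is known for was read from the promoter table of RefSeq (GRCm38.p6, the patch release of the mm10 build), which holds 77 promoters of 65 of the members' genes. Within 15 bases of the annotated start, 37.7% of these promoters held an uninterrupted run of 8 or more C or T bases on the sense strand, against 12% of 32851 promoters in the table. The following 8 windows show such runs in members that are described further on. Each window covers 30 bases before and 30 bases from the annotated start, with the pyrimidine run in capitals.
Rpl35, chr2:39005102-39005161, minus strand: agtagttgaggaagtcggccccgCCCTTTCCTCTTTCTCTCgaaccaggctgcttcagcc
Rps10, chr17:27635215-27635274, minus strand: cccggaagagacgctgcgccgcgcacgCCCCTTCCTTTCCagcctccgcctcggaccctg
Rpl38, chr11:114668550-114668609, plus strand: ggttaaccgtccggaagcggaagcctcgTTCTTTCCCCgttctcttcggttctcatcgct
Rps6, chr4:86857338-86857397, minus strand: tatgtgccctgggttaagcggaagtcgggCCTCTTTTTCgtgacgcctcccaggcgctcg
Rpl15, chr14:18270957-18271016, minus strand: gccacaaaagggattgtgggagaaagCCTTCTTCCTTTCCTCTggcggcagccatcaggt
Rplp2, chr7:141447621-141447680, plus strand: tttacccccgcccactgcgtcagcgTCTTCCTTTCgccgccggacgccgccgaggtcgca
Rpl14, chr9:120571487-120571546, plus strand: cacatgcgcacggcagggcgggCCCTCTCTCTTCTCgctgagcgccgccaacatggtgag
Rpl28, chr7:4792935-4792994, plus strand: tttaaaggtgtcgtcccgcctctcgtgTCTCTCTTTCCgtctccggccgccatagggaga

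Short pyrimidine words were also searched in the 100 bases centred on the start. On the sense strand CTCTTTC was present in 18.2% of the members' promoters and 1.37% of all promoters, CTTTCC in 29.9% and 4.69%, and CTTCCT in 28.6% and 7.26%. The word TTCCGG, which lies within the core of many ETS-family sites, was found on either strand in 28.6% of the members' promoters and in 8.01% of all. These words overlap one another and the runs, and a match is a description of the sequence only.

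Before the expression values, the libraries were compared with their labels. Depth was 18774578 to 31302588 counts. Male replicate 1 stood apart: Nr5a1, the gene whose regulatory sequence drives EGFP, was at 16.3 CPM (read counts scaled to depth, and between libraries by TMM) there and at 584 to 1266 in the other 7 libraries, and the nuclear RNA Malat1 took 11.1% of its counts. The study left this library out, and it is given apart here. All 6 gonadotrope markers were detected in every library. Their summed level was 21596 to 34941 CPM in females, against 67977 to 75754 CPM in male replicates 2 to 4. Male replicate 1, at 28522 CPM, was like the females in this sum. The markers did not move alike: the hormone gene Fshb was at 1402 to 5699 CPM in females and 16894 to 30905 CPM in male replicates 2 to 4, while Nr5a1 (862 to 1266 and 584 to 801 CPM) and Foxl2 (78.7 to 108 and 37.1 to 64.6 CPM) were lower in each of these males than in any female. Markers of other pituitary cells were present too: those of somatotropes (3 genes) summed to 12414 to 57901 CPM in females and 65451 to 142446 CPM in male replicates 2 to 4, and those of thyrotropes (2 genes) to 21.4 to 85.2 and 238 to 345 CPM. Stem cell markers (3 genes) ran the other way, at 244 to 383 CPM in females and 138 to 173 CPM in male replicates 2 to 4, with male replicate 1 at 305 CPM among the females. Each of these sums was mostly a single gene: Gh, Tshb and Sox9. Ghrhr of the somatotropes (2.95 to 25.7 and 8.94 to 60.7 CPM) overlapped between females and these males. So did S100b of the stem cells (0.368 to 1.47 and 0.227 to 0.906 CPM), while Pou1f1, Trhr and Sox2 did not. Lactotrope, corticotrope, endothelial, stromal, leukocyte and erythroid lists overlapped between the sexes, and no listed marker was at 0 in all libraries. In such bulk samples fewer cells of a type and less RNA per cell cannot be told apart, and the part of this mixture in the results below was not tested.

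Of the 90 members, 51 belong to the large subunit, 36 to the small subunit and 3 to the stalk. The annotation (GENCODE M21, mm10) lists 84 as protein coding and 6 as processed pseudogenes with ordinary symbols (Rpl6l, Rpl32l, Rps3a2, Rps3a3, Rps4l and Rps12l1). The genes lie on 19 chromosomes, and 4 genes are X-linked (Rpl10, Rpl36a, Rpl39 and Rps4x). A mean of at least 5 CPM over the 8 libraries was reached by 83 members. The other 7 were Rps12 and Rps21, with 1.47 to 4.53 and 2.18 to 3.11 CPM, and Rpl3l, Rpl10l, Rpl39l, Rps12l1 and Rps27l, of which none passed the filter on low counts for the test between the sexes. Rpl10l and Rps12l1 had no count in any library, where 3 counts would have been 0.0921 to 0.146 CPM.

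Together the 90 genes took a small part of the libraries. They held 0.773% ± 0.0730 (SD, n = 4) of all counts in females, 0.634% ± 0.0297 (SD, n = 3) in male replicates 2 to 4 and 0.682% in male replicate 1. In females the shares were 0.787%, 0.753%, 0.687% and 0.862%, and in male replicates 2 to 4 they were 0.602%, 0.641% and 0.660%. Every female library thus lay above these 3 males on this scale. Malat1 separated the same libraries, with 1.27 to 1.59% of counts in females and 0.706 to 0.925% in these males. With Malat1 and the mitochondrially encoded genes taken out of the total, the mean shares of the members were 0.818% in females and 0.668% in these males. After TMM scaling, with factors of 1.04 to 1.12 in females and 0.889 to 0.925 in these males, the summed levels overlapped, at 6599 to 8221 CPM in females and 6641 to 7428 CPM in males, with male replicate 1 at 6766 CPM. The separation of the sexes by share of counts was therefore present only without scaling between libraries.

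**Figure D1:**
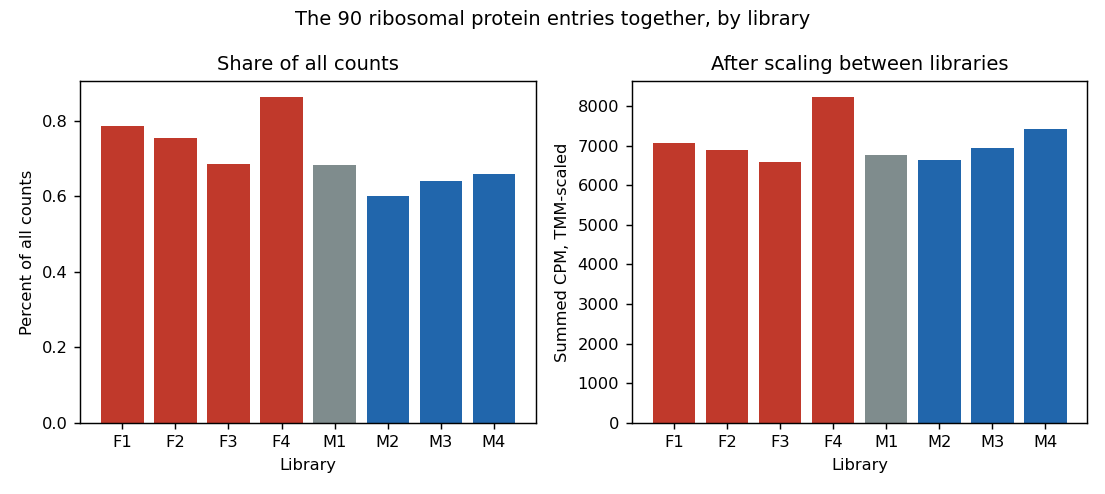
Share of all counts (left, percent) and summed TMM-scaled CPM (right) of the 90 ribosomal protein entries in each library; red bars are females, blue bars male replicates 2 to 4 and the grey bar male replicate 1. In the left panel every female bar is above the 3 blue bars (0.687% or more against 0.660% or less), whereas in the right panel the ranges overlap.

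Large-subunit genes held 0.466% ± 0.0393 of female counts and small-subunit genes 0.255% ± 0.0342 (SD, n = 4), and the 3 stalk genes 0.0518% ± 0.00589. In male replicates 2 to 4 the 3 classes held 0.382% ± 0.0174, 0.203% ± 0.0113 and 0.0498% ± 0.00375 (SD, n = 3). The stalk alone overlapped between the sexes on this scale, from 0.0444% to 0.0582% in females and from 0.0457% to 0.0531% in males. Numbered pseudogenes of the family, 300 entries that the rule leaves out, held a further 0.229% ± 0.0207 of counts in females and 0.191% ± 0.0201 in these males.

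Levels of different genes were compared per kilobase of the shortest principal transcript. Members with a mean of at least 5 CPM spanned 186-fold on this scale, with a median of 61.5 CPM per kb and quartiles of 30.1 and 114 CPM per kb. Rpl41, which encodes the smallest ribosomal protein, was the highest at 1995 CPM per kb and alone made up 0.100% ± 0.00992 (SD, n = 4) of counts in females. It was followed by Rpl36al, a copy of the X-linked Rpl36a, at 506, by the stalk gene Rplp1 at 452, by Rps15, a protein of the head of the small subunit, at 282, and by Rpl15 of the large subunit at 271 CPM per kb. These levels depend on the transcript taken: with the longest principal transcript Rpl41 was still the highest, at 1498 CPM per kb, but Rpl36al fell to 208 CPM per kb and Rpl15 to 113 CPM per kb. The large and small subunits had similar medians, 60.3 and 60.7 CPM per kb.

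At the low end lay the copies known from other tissues. Rpl3l, the striated-muscle counterpart of Rpl3, had a mean of 0.0229 CPM per kb, and Rpl39l, a testis-enriched copy of Rpl39, 0.184 CPM per kb. Rpl10l, which replaces Rpl10 in male germ cells, and Rps12l1 had no counts. Rps27l, a p53 target related to Rps27, was at 3.85 CPM per kb, and its CPM values of 0.257, 0.341, 0.153 and 6.74 in females and 0, 0.189 and 7.67 in male replicates 2 to 4 show that nearly all of its counts came from female replicate 4 and male replicate 4. Male replicate 1 had none.

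**Figure D2:**
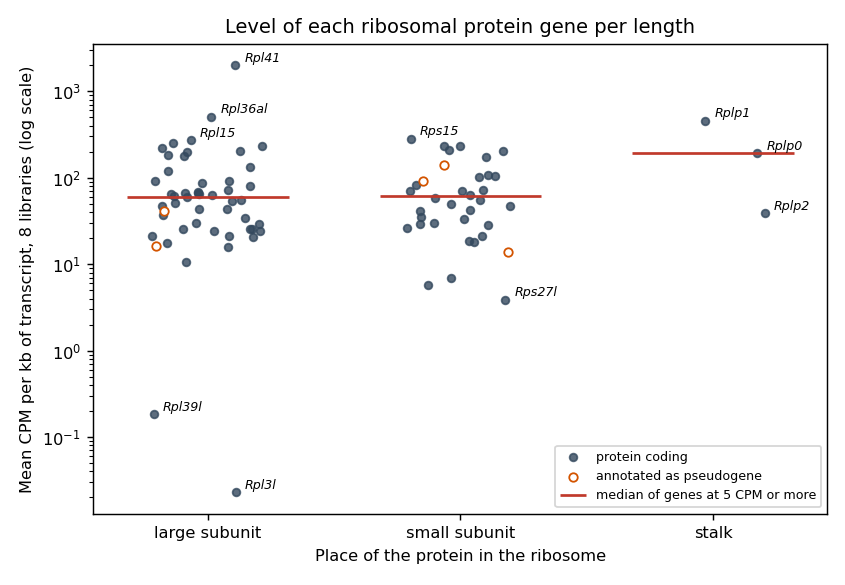
Mean level over 8 libraries in CPM per kb of transcript (log scale) for each member above 0, by the place of its protein in the ribosome; open circles are members annotated as pseudogenes and red lines the medians of members with at least 5 CPM. Rpl41 at 1995 CPM per kb stands above all others, and Rpl3l and Rpl39l lie far below the rest.

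Single members changed from library to library, as genes of the whole table did. The range was taken as the highest over the lowest CPM among the 8 libraries, with values under 3 counts set to 3 counts. Of the 83 members with at least 5 CPM, 23 (27.7%) varied 4-fold or more, 30 between 2-fold and 4-fold and 30 less than 2-fold, with a median of 2.71-fold. Over all 12712 genes at this level, 27.5% varied 4-fold or more, so that the share among ribosomal protein genes was near that of the whole table. In 13 members the range was 10-fold or more. The other 10 (Rpl18, Rpl22l1, Rpl23, Rpl28, Rpl35, Rps4x, Rps7, Rps15a, Rps18 and Rps23) varied between 4.03-fold and 8.42-fold. The members with the widest ranges are named below for their range, chosen after their values were seen, as are the steadiest.

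Rps19 (annotated at chr7:24884371-24889806, plus strand, mm10), a small-subunit protein mutated in Diamond-Blackfan anaemia, moved between a low and a high level. Its CPM was 2.18, 2.59, 87.2 and 3.24 in female replicates 1 to 4, 117 in male replicate 1 and 104, 2.15 and 95.7 in male replicates 2 to 4. Thus 4 libraries of both sexes were at about 2 to 3 CPM and the other 4 at 87.2 CPM or more, with nothing between. Rpl29 (chr9:106429454-106431568), a peripheral large-subunit protein, was steady at 149.5, 145, 129 and 151 CPM in females and 144 CPM in male replicate 1. Male replicates 2 to 4 gave 2.29, 121 and 96.1 CPM, so that only male replicate 2 was low, and the range reached 66.0-fold. Rpl39 (chrX:37082520-37085402), which lines the exit tunnel for the nascent chain, was at 25.8, 2.29, 18.9 and 46.2 CPM in females, 23.8 in male replicate 1 and 0.749, 21.2 and 30.1 in male replicates 2 to 4. Here female replicate 2 and male replicate 2 were the low libraries.

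Rpl19, which contributes to a bridge between the subunits, was low in other libraries again. It stood at 64.2, 70.8, 56.5 and 98.6 CPM in females and 66.6 CPM in male replicate 1, whereas male replicates 2 to 4 gave 66.1, 2.49 and 9.85 CPM. Rps10, a head protein that is ubiquitinated when ribosomes collide, had 22.3, 17.1, 15 and 18.4 CPM in females, 17.0 in male replicate 1 and 0.985, 0.604 and 13.6 in male replicates 2 to 4, so that male replicates 2 and 3 were low. Rpl38, known from the skeletal patterning defect of the Tail-short mouse, followed a like course at a lower level, with 6.33, 5.71, 5.19 and 9.64 CPM in females, 6.24 in male replicate 1 and 1.06, 0.793 and 9.08 in male replicates 2 to 4. The entry Nudt3, counted at the same locus as Rps10, was steady at 154 to 201 CPM in all 8 libraries. Rpl22, an RNA-binding protein of the large subunit, was at 16.3, 17.8, 104 and 94.7 CPM in females, 9.91 in male replicate 1 and 84.8, 87.4 and 88.4 in male replicates 2 to 4, and here female replicates 1 and 2 and male replicate 1 were low.

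Other wide ranges came from low libraries of either sex. Rpl14 was at 281, 294, 250.2 and 24.3 CPM in females and 281 to 312 CPM in male replicates 2 to 4, so that only female replicate 4 was low, and Rpl32 was at 218, 6.78, 90.7 and 227 CPM in females, with female replicate 2 low. In Rpl17 the low libraries were female replicate 4 at 1.47 CPM and male replicate 2 at 5.79 CPM, against 22.1 to 35.0 CPM elsewhere. Rps27a, which is made as a fusion to ubiquitin, fell under 50% of its median in female replicates 3 and 4 and male replicate 2, at 12.5, 4.32 and 5.40 CPM. Rps29 was at 2.01 CPM in female replicate 1, 3.49 in male replicate 1 and 2.82 in male replicate 4 and at 12.4 to 23.1 CPM in the other libraries. For Rpl10a, a protein of the mobile side stalk of the large subunit, the lowest value was 6.76 CPM in female replicate 1 and the highest 68.9 CPM in female replicate 4.

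Members with ranges between 4-fold and 10-fold showed the same kind of values at smaller size. Rps7, of the small subunit, was at 20.5, 2.54, 16.7 and 18 CPM in females and 21.4, 10.3 and 16.9 CPM in male replicates 2 to 4, with female replicate 2 low, as it was for Rpl32. Rps15a was at 13.0, 17.3, 2.52 and 20.2 and 4.57, 14.0 and 6.04 CPM, with female replicate 3 and male replicates 2 and 4 low. Rps18, a protein of the head, differed in that high libraries stood out: female replicate 4 and male replicate 2 had 91.1 and 99.6 CPM and the other 6 libraries 13.0 to 29 CPM. Rps23, which helps to keep decoding accurate, was at 78.1, 21.7, 70.5 and 93.0 CPM in females and 69.2, 68.7 and 44.3 CPM in males. Its neighbour in range Rps20, another target of ubiquitination at collided ribosomes, was at 111, 32, 89 and 109 and 82.1, 84.1 and 33.8 CPM (3.48-fold), and in both genes female replicate 2 and male replicate 4 were the lowest libraries. Rpl28, whose window is printed above, was at 13.3, 29.3, 29.9 and 13.9 CPM in females and 30.5, 7.55 and 14.5 CPM in males, with female replicates 2 and 3 and male replicate 2 high. Rps9, with a range of 3.33-fold, stood out upward in female replicate 4, at 387 CPM against 116 to 166 CPM in the other 7 libraries.

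Which libraries were low thus differed from gene to gene. A library was called low for a member when its CPM was under 50% of the member's median, and 22 of the 23 members with a 4-fold range had low libraries, in 18 different sets. Low libraries were of both sexes in 9 of these members, only female in 7 and only male in 6, and the other (Rpl28) had high libraries but no low one. Counted by library over the 83 members, 10, 8, 6 and 6 members were low in female replicates 1 to 4, 7 in male replicate 1, and 9, 7 and 6 in male replicates 2 to 4. No library held most of the low values. Over the 3403 pairs of these members the median Pearson correlation of log2 CPM across the 8 libraries was 0.0898, and 2.20% of pairs were above 0.8. These correlations are a description. They include male replicate 1, the libraries are few, and no such value was taken for pairs of other genes.

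**Figure D3:**
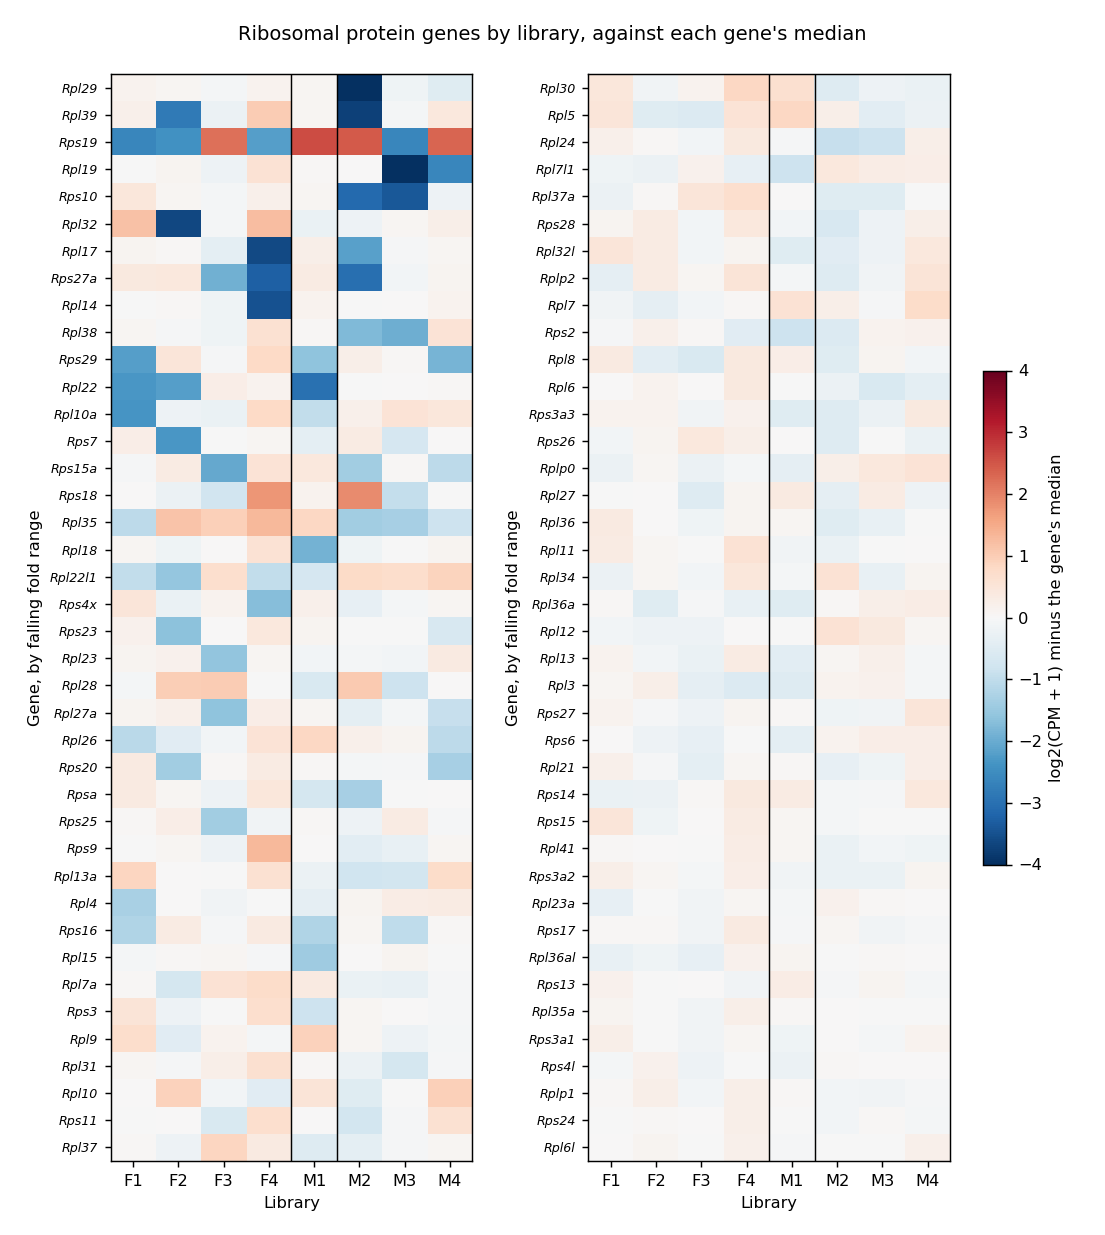
Level of 80 of the 83 members with at least 5 CPM in each library, as log2(CPM + 1) minus the member's median (colour scale from -4 to 4), ordered by range from top left to bottom right; vertical lines set off male replicate 1. The dark blue cells of the left panel are in different columns from row to row, and the rows of the right panel, which hold the members with the smallest ranges, are nearly even.

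**Figure D4:**
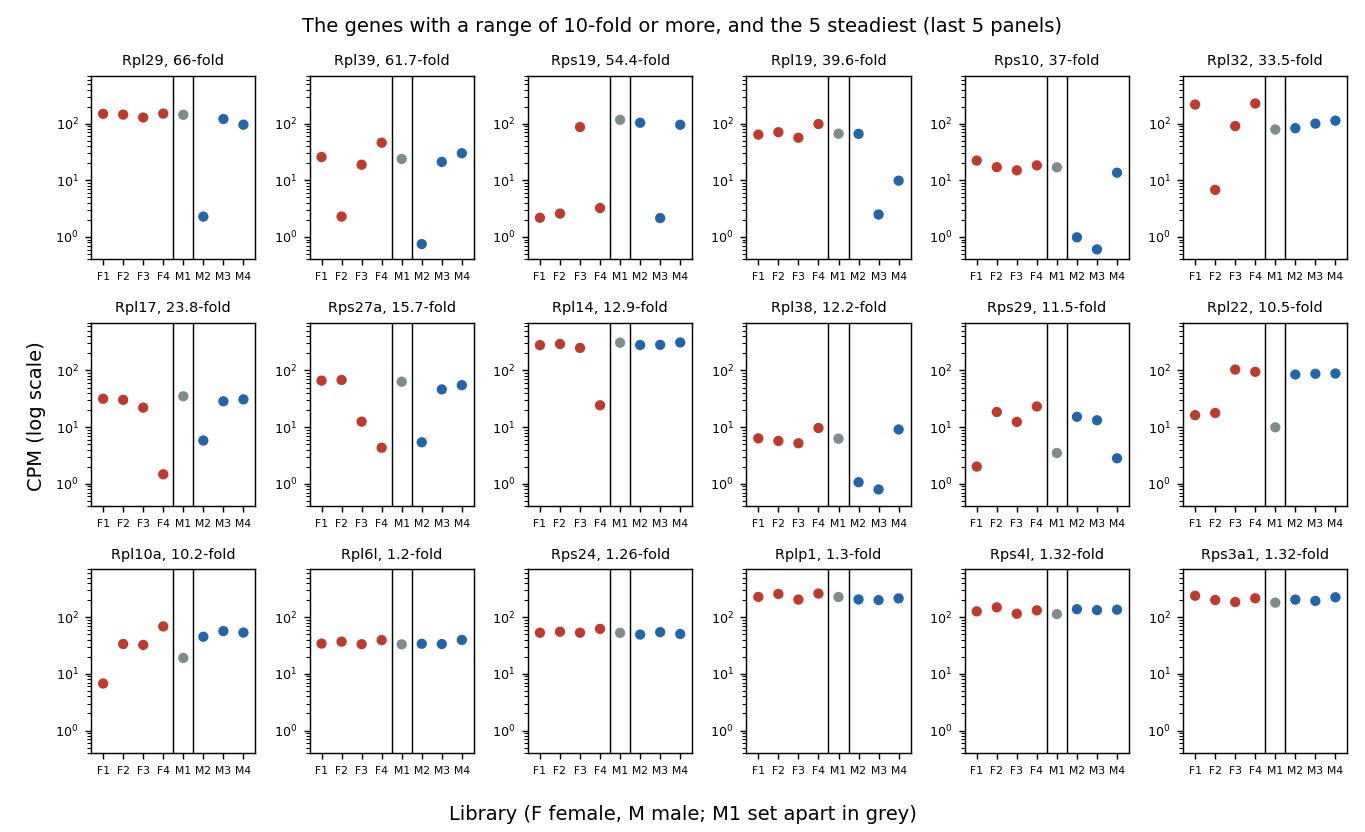
CPM by library (log scale) for the 13 members with a range of 10-fold or more and for the 5 members with the smallest range; red points are females, grey male replicate 1 and blue male replicates 2 to 4. Rps19 has 4 libraries at 2.15 to 3.24 CPM and 4 at 87.2 CPM or more, whereas Rps24 keeps to 49.5 to 62.3 CPM.

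By kind of gene, large-subunit genes gave 14 of 48 members with a 4-fold range, small-subunit genes 9 of 32 and the stalk 0 of 3. All 23 were protein coding, of 78 such members. The 5 pseudogene-type members with at least 5 CPM had ranges of 1.20-fold to 2.19-fold, and none of 69 numbered pseudogenes at this level reached 4-fold. In the whole table a 4-fold range was found in 28.0% of 11493 protein-coding genes, 15.7% of 979 single-exon genes and 6.51% of 415 processed pseudogenes. Mitochondrial ribosomal protein genes, which encode the other ribosome of the cell, had it in 28 of 77 (36.4%). The median level was 42.7 CPM for the 23 members and 51.0 CPM for the 30 under 2-fold.

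Copies of these genes bear on how exactly reads can be assigned. A median of 62.2% of a member's 50-base stretches of spliced transcript occurred also in another annotated gene. In 55 of 83 members at least 50% of the stretches did, and the counts of these genes may be uncertain. The reads were longer and sequenced in pairs, and other genes annotated at the same place were included. These shares can therefore overstate how often a read cannot be placed. The median was 65.6% for the 23 members with a 4-fold range and 63.7% for the 30 under 2-fold, and across the 83 members the rank correlation of range and shared sequence was -0.05 (Spearman, across genes, which are not independent). In addition 28 of the 90 members had another symbol counted at the same assembled locus.

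The steadiest members can serve as a contrast. Rps24, another protein of the small subunit, was at 53.3, 55.6, 53.4 and 62.3 CPM in females, 53.0 in male replicate 1 and 49.5, 54.6 and 50.6 in male replicates 2 to 4. Rps3a1 was at 239.7, 201, 186 and 216 CPM in females, 181 in male replicate 1 and 205, 194 and 225 in the other males. Neither separates the sexes. Rpl6l, a single-exon copy of Rpl6, was the steadiest of all with 33.3 to 39.8 CPM (1.20-fold), and the transcribed copy Rps4l kept to 114 to 149.6 CPM.

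The comparison of the sexes asked whether ribosomal protein genes differ between male and female gonadotropes. Male replicates 2 to 4 were compared with the 4 females by edgeR's quasi-likelihood test over 20152 genes, adjusted by Benjamini-Hochberg, at a threshold of 0.05. Of the 85 members tested, 0 passed, against 2.34% of all genes (471). The smallest adjusted p was 0.100, for Rpl35. At an unadjusted p under 0.05, 13 of 85 members (15.3%) passed, 5 higher and 8 lower in males, against 19.9% of all genes. The 5 were Rpl7l1, Rpl12, Rpl22l1, Rplp0 and Rps6, and the 8 included Rpl6, Rpl30, Rpl31, Rpl35, Rpl37a, Rpl41 and Rps26. By DESeq2, 3 of the 82 members with an adjusted p passed (Rplp0, Rpl35 and Rpl6), against 9.93% of all genes. By these measures the members were called no more often than the table as a whole.

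The median of the members lay slightly toward females. The median log2 fold change (male over female) was -0.15 over the 85 members and -0.03 over all genes tested, and 57 members were on the female side and 28 on the male side. With scaling by library size alone all genes shifted to a median of -0.24 and the members to -0.37, with 71 on the female side and 14 on the male side, so that their distance from the table was -0.13 with TMM and -0.12 with library size alone. Directions were not counted over all genes. Both medians of all genes were negative, so a lean to the female side is not particular to the members. Of the 85 members, 64 differed by less than 0.5 on the log2 scale and 6 by 1 or more, and all of these 6 had a 4-fold range among libraries. The SE of the fold change had a median of 0.70 in members with a 4-fold range, 0.17 in those under 2-fold and 0.34 over all genes.

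Rpl35, a large-subunit protein at the exit of the tunnel whose promoter run is printed above, had the largest change. Its CPM was 28.0, 130, 115 and 147 in females and 21.9, 22.8 and 33.0 in male replicates 2 to 4, with 106 in male replicate 1. Female replicate 1 lay among the low males and male replicate 1 nearer to the 3 high females, so that the sexes overlapped. The log2 fold change was -2.05 (SE 0.55), with an adjusted p of 0.100 by edgeR and 0.00473 by DESeq2. Without female replicate 1 the edgeR value was -2.35 (SE 0.23) with an adjusted p of 0.0263. That library goes against the difference, so leaving it out enlarges the value by construction. With male replicate 1 added the value was -1.20 (SE 0.65) with an adjusted p of 0.613. Transcripts of Rpl35 share 95.1% of their 50-base stretches with 12 other genes, so its count may be among the less certain.

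The other large changes toward females came with low libraries among the males. The mean CPM of Rps10 was 18.2 ± 3.08 (SD, n = 4) in females and 5.07 ± 7.41 (SD, n = 3) in males, with a log2 fold change of -1.86 (SE 1.03, edgeR adjusted p 0.377). Without male replicate 4, which unlike male replicates 2 and 3 was not low, it was -4.55 (SE 0.35) with an adjusted p of 0.0108. Rpl38 gave -0.90 (SE 0.84, edgeR adjusted p 0.630) and, without the same library, -2.89 (SE 0.39) with an adjusted p of 0.0437. For both genes male replicate 4 goes against the difference, so leaving it out enlarges the value by construction. With male replicate 1 added the edgeR values were -1.17 for Rps10 and -0.64 for Rpl38, with adjusted p of 0.763 and 0.851. Rpl19 gave -1.51 (SE 0.96) and Rpl29 -1.0 (SE 0.98), with edgeR adjusted p of 0.450 and 0.650. Without male replicate 2 the value was -0.43 for Rpl29 (SE 0.17, adjusted p 0.326) and -3.57 for Rpl19 (SE 0.66, adjusted p 0.103).

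Toward males, Rps19 had the largest value, 1.49, with an SE of 1.62 and an edgeR adjusted p of 0.690, and both of its levels occurred in both sexes. Without female replicate 3, its only high female library, the value was 4.64 (SE 1.30, edgeR adjusted p 0.131). Rpl22l1, the copy of Rpl22, was at 22.8, 15.4, 74.0 and 23.0 CPM in females and 79.8, 76.1 and 86.6 CPM in male replicates 2 to 4. Female replicate 3 was close to the males and male replicate 1, at 29.1 CPM, close to the other females. Its log2 fold change was 1.24 (SE 0.52, edgeR adjusted p 0.245), and without female replicate 3 it was 1.98 (SE 0.21) with an adjusted p of 0.0293. For both Rps19 and Rpl22l1 this library goes against the difference, so leaving it out enlarges the value by construction. With male replicate 1 added the adjusted p of Rpl22l1 was 0.607. Rpl22 itself gave 0.55 (SE 0.69) and Rpl10a 0.52 (SE 0.63).

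Some members without jumps differed less but more evenly, and none of them passed by edgeR. Rplp0, the base of the stalk, had 209, 256, 205 and 234 CPM in females and 288, 331 and 359.6 CPM in male replicates 2 to 4, with 191 CPM in male replicate 1. These 3 males were above all females, by 0.50 (SE 0.15) on the log2 scale, with an adjusted p of 0.124 by edgeR and 0.0337 by DESeq2. Its partners had values below 0, within 2 SE of it: Rplp1 was at 229, 258, 205 and 262 CPM in females and 206, 201 and 215 CPM in these males (-0.23, SE 0.14), and Rplp2 at 11.8, 19.3, 16.2 and 22.1 and 10.3, 13.6 and 22.4 CPM (-0.20, SE 0.33). Rpl6, a large-subunit protein, was at 272, 297, 269 and 349 CPM in females and 228, 176 and 206 CPM in males, all 3 males below all females, by -0.58 (SE 0.16), with an adjusted p of 0.103 by edgeR and 0.0310 by DESeq2. Rps6, the target of S6 kinase, was at 183, 157, 143 and 179 CPM in females and 199, 219.5 and 219 CPM in males, 0.33 (SE 0.14, edgeR adjusted p 0.242). With library size alone the edgeR values were 0.28 for Rplp0 and 0.11 for Rps6, with adjusted p of 0.287 and 0.708, and -0.79 for Rpl6 with an adjusted p of 0.0395. Rpl6 and Rps6 were named after their values were seen.

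Altogether 14 of the 85 members (16.5%) did not overlap between the females and male replicates 2 to 4, against 22.3% of all genes tested. The males were above in 7 (Rpl4, Rpl7l1, Rpl12, Rpl22l1, Rpl36a, Rplp0 and Rps6) and below in 7 (among them Rpl6, Rpl29, Rpl30, Rpl31, Rpl41 and Rps10). With library size alone the count was 0 above and 20 below, against 5.35% of all genes above and 19.9% below, so the balance of directions depends on the scaling. Rpl41, the most abundant member, was at 895, 884, 866 and 1083 CPM in females and 732, 809.5 and 775 CPM in these males, a log2 fold change of -0.30 (SE 0.13, edgeR adjusted p 0.248), and male replicate 1 at 930.2 CPM was among the females.

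**Figure D5:**
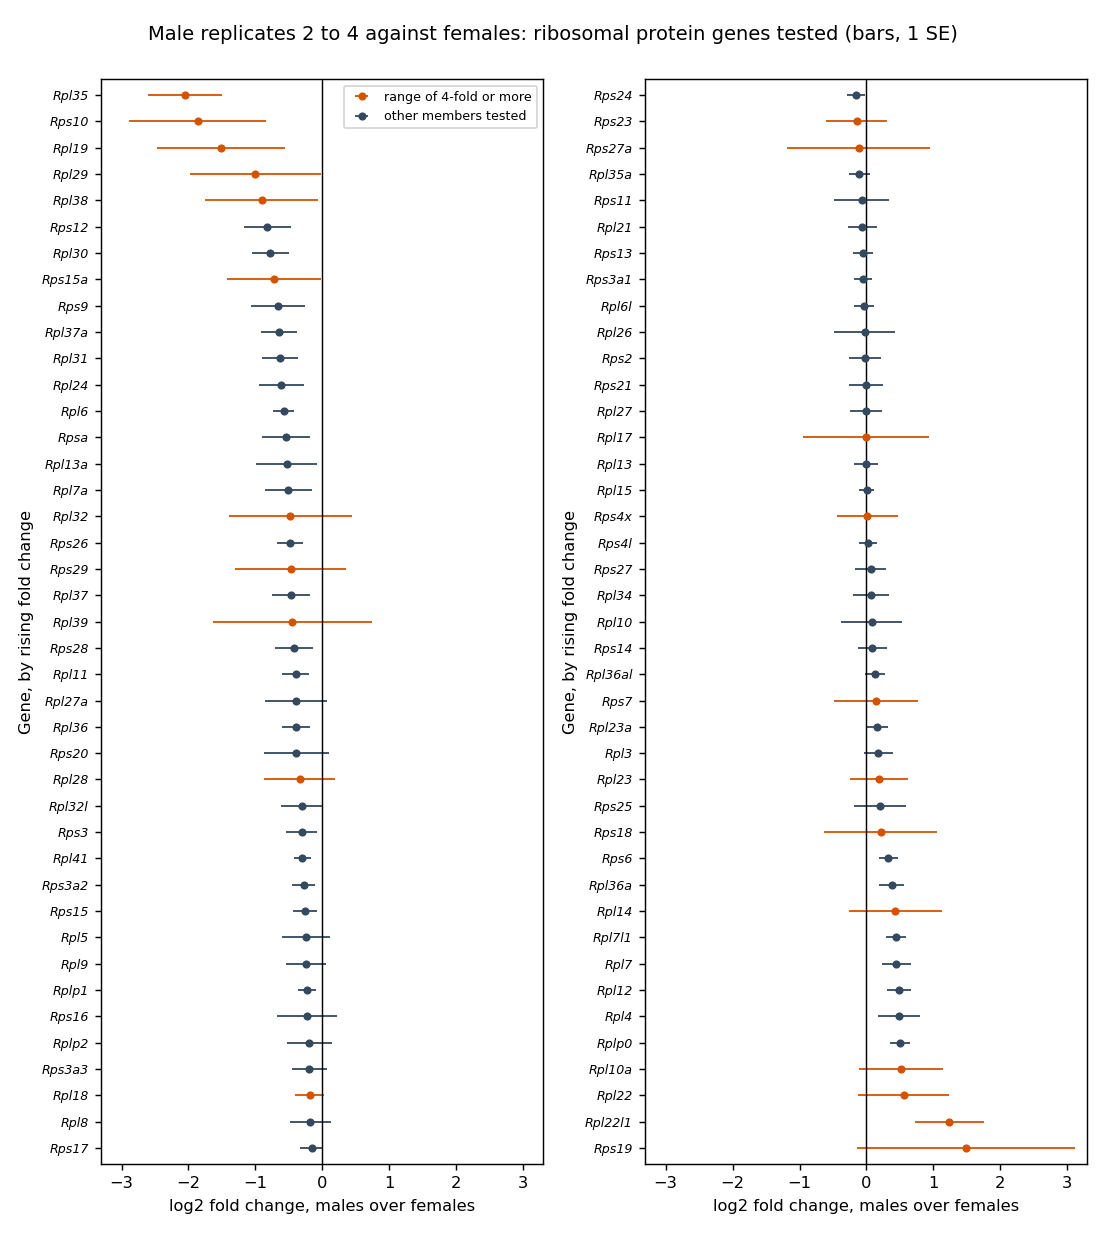
Log2 fold change, male replicates 2 to 4 over females, with 1 SE on each side, for 82 of the 85 members tested, in rising order from top left to bottom right; orange marks members with a 4-fold range among the 8 libraries. The values beyond 1 in either direction, from -2.05 for Rpl35 to 1.49 for Rps19, are all orange and have wide bars.

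Male replicate 1 was compared with the others by position, since 1 library allows no test. Of 86 members with a mean of at least 1 CPM it was above the other 7 libraries in 8 (9.30%), against 20.8% of all genes at this level, and below them in 15 (17.4%), against 20.6%. The share below was near that of the whole table and the share above was lower than it, and neither difference was tested. Rpl22 had 9.91 CPM where the other males had 84.8 to 88.4 CPM, but female replicates 1 and 2 were also low, at 16.3 and 17.8 CPM. Rpl18 was at 11.4 CPM against 39.6 to 66.4 CPM in the other 7 libraries and Rpl15 at 86.1 CPM against 219 to 251 CPM. The stalk base Rplp0, at 191 CPM, was also below all others. Compared with male replicates 2 to 4 alone, Rpl35 (106 against 21.9 to 33.0 CPM), Rpl19, Rps10, Rps15a (18.5 against 4.57 to 14.0 CPM) and Rpl30 (20.6 against 8.63 to 10.8 CPM) were the highest above.

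Paralog pairs were set side by side per kilobase. Rpl36al exceeded the X-linked Rpl36a in every library, and Rpl36a was 0.0373 to 0.0743 of it, or 0.0904 to 0.180 with the longest principal transcripts. Rpl22 and Rpl22l1 were both low in female replicates 1 and 2 and both at 74.0 CPM or more in female replicate 3 and male replicates 2 to 4. The ratio of Rpl22 to Rpl22l1 was 0.832, 1.35, 1.63 and 4.80 in females, 0.397 in male replicate 1 and 1.24, 1.34 and 1.19 in male replicates 2 to 4. In female replicate 4 Rpl22 was at 94.7 CPM and Rpl22l1 at 23.0 CPM. These ratios rest on the shortest principal transcript of Rpl22, of 474 bases, and with the longest, of 2051 bases, they were 0.0917 to 1.11 and above 1 in female replicate 4 alone. Rpl7 and Rpl7l1 were near each other, with ratios of 0.905 to 1.64 except in male replicate 1 (3.14), but of 1.80 to 6.25 with the longest principal transcripts. Rps4x and its processed copy Rps4l had ratios of 0.246 to 1.18, the lowest in female replicate 4, where Rps4x was at 33.7 CPM against 87.7 to 117 CPM in male replicates 2 to 4 and Rps4l kept its level. Rpl3 (89.1 to 152 CPM), Rpl10 (31.8 to 88.4 CPM) and Rps27 (13.4 to 22.5 CPM) were present in all libraries, while Rpl3l was above 0 in 2 libraries and Rpl10l in none.

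The 4 X-linked members gave no call. Log2 fold changes (male over female) were 0.08 (SE 0.46) for Rpl10, which joins the large subunit late in its maturation, 0.37 (SE 0.19) for Rpl36a, -0.45 (SE 1.18) for Rpl39 and 0.02 (SE 0.45) for Rps4x. The 3 proteins around the mRNA path of the small subunit did not pass either. Rps2 was at 39.4 to 62.0 CPM in females and 37.1 to 60.9 in male replicates 2 to 4, Rps3 at 163 to 299.6 and 181 to 198 CPM, and Rpsa, also known as the laminin receptor precursor, at 85.5 to 135 and 38.8 to 101 CPM.

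Genes that act with the ribosome were read from lists beside the members, and edgeR called 0 genes in any of them, against 2.34% of all genes. The first list included Fau, which encodes a ribosomal protein fused to a ubiquitin-like protein, and the scaffold Rack1. Rack1 was at 68.6, 66.1, 70.7 and 77.6 CPM in females and 70.4, 72.6 and 73.4 in male replicates 2 to 4. Fau was less even, at 51.5, 17.6, 15.3 and 52.4 and 37.5, 40.8 and 49.5 CPM, with female replicates 2 and 3 low. Of the 6 elongation factors, Eef1a1, which brings aminoacyl-tRNA to the ribosome, was at 2013, 1789, 1642 and 1582 CPM in females and 2179, 2086 and 1876 CPM in these males. Eef2, the translocation factor, was at 1149, 983, 902 and 934 and 301, 741 and 319 CPM, with male replicates 2 and 4 low, and a log2 fold change of -1.16 (SE 0.33, edgeR adjusted p 0.118).

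Of 12 other symbols listed for TOP mRNAs 11 were tested (the remaining one is an older name of Rack1), with a median log2 fold change of -0.23, and 1 had a 4-fold range: Npm1, a nucleolar chaperone, was at 189, 28.5, 163 and 176 CPM in females and 167, 149 and 31.1 in males. Tpt1 and Eif4b varied little, at 121 to 162 and 184 to 248 CPM over the 8 libraries. The 20 ribosome biogenesis genes had a median of -0.08 and 2 of 19 with a 4-fold range, among them Mybbp1a at 56.2, 3.66, 39.4 and 44.5 CPM in females, where female replicate 2 was low. Ubtf, a factor of RNA polymerase I, was at 14.6, 8.78, 14.9 and 8.30 and 4.73, 4.27 and 4.86 CPM (-1.36, SE 0.27, edgeR adjusted p 0.0531). The 16 genes of mTORC1 and its targets had a median of -0.02, and 3 of 15 a 4-fold range. Larp1, the binder of TOP mRNAs, was at 64.4, 73.0, 69.8 and 58.8 CPM in females and 78.8, 72.5 and 72.5 in males. Eif4e, the cap-binding protein, varied widely, at 158, 15.3, 15.3 and 17.4 CPM in females and 17.9, 233 and 29.8 in males, with female replicate 1 and male replicate 3 high. The 77 mitochondrial ribosomal protein genes tested had a median of 0.03.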

How the data were processed

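The authors deposited raw read counts per gene for the 8 libraries in a single table. Per the methods of the study, total RNA was amplified with a low-input kit, sequenced in pairs, trimmed with cutadapt, mapped to mm10 with STAR and counted with featureCounts at default settings. The annotation is not given in the sources used here. Of the members, 87 carry MSTRG locus names, a form that StringTie assigns and the methods do not mention. FeatureCounts by default leaves out reads that map to several places, which could lower genes with close copies; its effect here was not tested.

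From these counts, CPM were computed with TMM factors over the 8 samples. The sexes were compared with edgeR 4.0.16 (filterByExpr, quasi-likelihood F test, R 4.3.3) without male replicate 1, as in the study, and SE is the fold change divided by the root of F. DESeq2 1.42.0, other scalings and filters, a replicate block and leaving out each sample were alternatives. Groups came from the labels. Members were named when called, among the 5 highest or lowest per length, among the 5 largest changes in each direction (between the sexes, or male replicate 1 against the other males), X-linked, stalk, paralogous, or at the mRNA path; others are said to be chosen after their values were seen or stand only in lists. Members, lists and rules were chosen with earlier results of these data known. The replicate numbers do not pair the samples. Some items are not reported here by name or drawn in the labelled figures; counts and medians include them. In simulated counts for 20152 genes, of which 19127 were tested, the fit recovered 67.5% of 191 changed genes at a log2 change of 3, with 3.01% of calls false.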

Additional observations from a re-analysis of the deposited data

Results flagged for a closer look

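In each sex 4 libraries allow a check for a library far from the rest (Dixon's test on the gap over the range), which was run on 208 groups of 4 over the detected members, the shares of counts by subunit and the other genes given with their values. It was met in 22 groups. The nominal rate of the test would give about 10.4, but that rate assumes normal and independent values. CPM values and shares that sum the same genes need not meet this, and the count over all genes was not taken. No excess over chance can therefore be read from these counts. Another 4 groups with counts in 1 library only (Rpl39l and Rpl3l in each sex) were not examined, since they meet the test by construction. No cause was tested.

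In females, Rps19 was at 87.2 CPM in female replicate 3 against 2.18 to 3.24 CPM in the others, Rpl22l1 at 74.0 CPM in the same library against 15.4 to 23.0 CPM, and Rpl23 at 15.6 CPM there against 51.8 to 54.7 CPM. The same library was low for Rpl27a (23.2 CPM against 79.7 to 88.8 CPM) and, by less, for Rps3a3 (10.1 CPM against 12.5 to 12.8 CPM). Female replicate 4 stood apart for Rpl14 (24.3 CPM against 250.2 to 294 CPM), Rps18 (91.1 CPM against 15 to 26.6 CPM), Rpl41 (1083 CPM against 866 to 895 CPM), Rps9 (387 CPM against 134 to 166 CPM) and Rps27l (6.74 CPM against 0.153 to 0.341 CPM). In males, male replicate 1 stood apart for Rpl22 (9.91 CPM against 84.8 to 88.4 CPM), Rpl15 (86.1 CPM against 230.2 to 251 CPM) and Rpl35 (106 CPM against 21.9 to 33.0 CPM). Male replicate 4 did so for Rps27l (7.67 CPM against 0 to 0.189 CPM), Rps20 (33.8 CPM against 82.1 to 90.2 CPM), Rpl6l (39.8 CPM against 33.3 to 34.0 CPM) and Rpl23 (62.9 CPM against 44.7 to 45.7 CPM). Outside the family, Eif4e was at 158 CPM in female replicate 1 and 233 CPM in male replicate 3 against 15.3 to 29.8 CPM elsewhere, Npm1 at 28.5 CPM in female replicate 2, and Rack1 at 48.9 CPM and Ubtf at 13.9 CPM in male replicate 1.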

How the results depend on the processing

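The median log2 fold change of the members kept its sign under every alternative run, from -0.37 (library size alone) to -0.07 (replicate block), from -0.21 to -0.05 with 1 sample left out, and -0.16 without the members of a 4-fold range, an alternative chosen after seeing the data. The count of genes called over the table was less stable: 471 became 2253 with DESeq2, 808 with library size alone, 177 without a filter on low counts, 67 with all 8 samples, 88 to 171 with 1 sample left out and 0 with a replicate block. That block leaves few residual degrees of freedom, and the replicate numbers do not pair the samples (correlations of -0.02, -0.008 and -0.0008 between the deviations of same-numbered samples). The count of members called, 0, became 3 with DESeq2 and 1 (Rpl6) with library size alone, and was 0 to 2 with 1 sample left out: Rpl35 without female replicate 1, Rpl22l1 without female replicate 3, and Rpl38 and Rps10 without male replicate 4. In each of these cases the library left out went against the difference, which enlarges the difference by construction. No cause of the changes in count was tested. With numbered pseudogenes added, the members' share of counts was 1.0% in females and 0.825% in males, and without Malat1 and mitochondrially encoded genes in the total it was 0.818% in females and 0.668% in males. For the 19 members whose log2 fold change is given, 245 of 266 values under alternatives kept direction and side of the threshold, 8 passed it in the alternative, and 3 had no adjusted p (Rpl19, Rpl38 and Rps19 in DESeq2). The other 10 turned direction, none past the threshold: with library size alone Rpl10 (-0.15) and Rps4x (-0.22), and with 1 sample left out Rpl10 (-0.46 to 0.48), Rps4x (-0.25 to 0.32), Rpl39 (-1.12 to 0.16) and Rplp2 (-0.58 to 0.031). With the longest principal transcript, an alternative chosen after seeing the data, Rpl22 was above Rpl22l1 per kb in 1 library in place of 6. With library size alone male replicate 1 was above the other 7 libraries in 6 members and below in 13, against 19.4% and 20.2% of all genes.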
